A study of Homo sapiens with 20 samples.

Results

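Cytosolic ribosomal protein genes were taken by name: every row whose symbol is RPL or RPS followed only by digits and an optional A or X, together with RPLP0, RPLP1, RPLP2 and RPSA. The rule used no measured value and found 77 of 26485 gene rows, 46 for the large and 31 for the small subunit. All 77 were among the 15958 genes abundant enough to be tested, and each member had the same isoform and coordinates in both experiments' tables. The fewest reads of any member in any library were 834. Of the 77 rows, 76 overlapped the place that RefSeq (GRCh38.p14) gives the symbol. The exception was RPL21, whose row lies at chr10:120354661-120355183 on the minus strand and spans 523 bases, while RefSeq places the gene at chr13:27251558-27256568. Values named RPL21 below are those of that chromosome 10 row.

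Nuclear RNA was sequenced from HCT116 cells, an established line from a colorectal carcinoma that keeps wild-type p53, after removal of ribosomal RNA. Every culture was electroporated, either in water or with 10 µM of a bivalent stapled peptide made to keep p53 from binding Mediator, a large coactivator complex that transcription factors use to reach RNA polymerase II. Cells were then kept for 3 h in medium with 0.1% DMSO, with or without 10 µM Nutlin-3a, which releases p53 from the ubiquitin ligase MDM2, and peptide wells also had 200 nM peptide in the medium. The groups were Nutlin-3a with peptide, Nutlin-3a with water, DMSO with peptide and DMSO with water, each with 2 libraries in experiment 1 and 3 in experiment 2, 20 in all. Because all 4 groups share the electroporation and the DMSO, no library shows cells without either. The labels do not say whether libraries of a group came from separate cultures, so p-values measure only the spread between these libraries.

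Ribosomal proteins are the protein part of the ribosome, the particle that translates mRNA, and most are needed in equal numbers for each subunit. In vertebrates their mRNAs start with a run of pyrimidines, the 5′ terminal oligopyrimidine (TOP) tract, through which mTOR signalling sets their translation, and many of the genes carry small nucleolar RNAs (snoRNAs) in their introns. RPL5 and RPL11, which with 5S ribosomal RNA form the 5S RNP, bind MDM2 when ribosome assembly is disturbed and so link this gene family to p53.

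The starts of these genes are shown because the TOP tract is the sequence feature that the family shares. RefSeq promoter windows, 250 bases before to 50 bases after the start, could be matched to 61 of the 77 members on the row's own chromosome. At least 5 C or T in a row within 5 bases of the start were found in 55 of the 61 (90.2%), against 35.7% of all 35116 windows. The run had a median length of 11 bases in the members and 4 in all windows. The 6 members without one at the annotated start were RPL13, RPL15, RPL27, RPS15, RPS27A and RPS29. That start lay 12364 bases from the row's own start in RPS29, 1160 in RPL15 and 775 in RPS27A, and 10 to 54 in the others. Some members with a run also had a distant start, such as RPL6 with 2786 bases. The sequences below run from 35 bases before to 15 bases from the start on, and capitals mark the pyrimidine run. RPL7A had the longest run, 25 bases in its window, and RPL11 a short one. RPS15 had none within 5 bases of the start, though its printed window ends in C and T.
RPLP1, chr15:69452783-69452832, plus strand: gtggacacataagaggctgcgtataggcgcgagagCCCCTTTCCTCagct
RPS12, chr6:132814534-132814583, plus strand: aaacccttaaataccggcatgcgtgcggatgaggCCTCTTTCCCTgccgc
RPL41, chr12:56116598-56116647, plus strand: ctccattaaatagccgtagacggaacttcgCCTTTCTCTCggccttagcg
RPS27, chr1:153990727-153990776, plus strand: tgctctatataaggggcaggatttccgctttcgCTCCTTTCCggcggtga
RPS28, chr19:8321461-8321510, plus strand: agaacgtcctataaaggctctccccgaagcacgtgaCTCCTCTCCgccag
RPLP0, chr12:120201097-120201146, minus strand: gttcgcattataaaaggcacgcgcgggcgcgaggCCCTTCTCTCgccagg
RPL7A, chr9:133348183-133348232, plus strand: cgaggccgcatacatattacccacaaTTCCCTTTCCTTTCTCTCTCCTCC
RPL11, chr1:23691744-23691793, plus strand: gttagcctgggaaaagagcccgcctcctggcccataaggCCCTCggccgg
RPS15, chr19:1438361-1438410, plus strand: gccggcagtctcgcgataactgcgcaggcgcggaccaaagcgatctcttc

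Other short motifs were counted on both strands of the 300-base windows. The SP1 box GGGCGG was in 34 of the 61 members' windows (55.7%) and in 45% of all windows. The ETS site CCGGAAG was in 21 (34.4%) against 10.3%, and the YY1 core ATGGCG in 20 (32.8%) against 10.7%. TATAAA was found in 5 members, RPL3, RPL7A, RPLP0, RPS28 and RPS3, or 8.20% against 11.5%. CACGTG, the E-box of MYC and related factors, was in RPL13A, RPL19 and RPS28 (4.92% against 7.26%), TGACGTCA in RPL18, RPL3 and RPLP2 (4.92% against 1.85%), and the NRF1 element, GCGCA followed by its reverse complement, in RPL10A (1.64% against 1.24%). The palindrome of TCTCG followed by its reverse complement was in RPL17, RPL26, RPS19 and RPS6, or 6.56% of the members' windows against 0.424% of all. The full p53 element was searched only as a pair of adjoining half-sites with no gap and no mismatch. It was in none of the 61 windows and in 6 of all 35116 (0.0171%). At so low a rate its absence says nothing particular about the members. These matches are letters in a window and were not set against any binding data.

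In experiment 2 a library held 18787172 to 47407746 reads on gene rows, and in experiment 1 it held 36717795 to 63896604. The labelled epithelial line was checked by its markers: the keratin KRT8 averaged 1383 reads per 1000000 (RPM) and the adhesion gene EPCAM 256 RPM, while PTPRC, a leukocyte gene, averaged 0.0272 RPM. Rows of structural RNAs held between 0.618% and 3.52% of reads in experiment 2, and between 15.4% and 24.5% in experiment 1. The second Nutlin-3a library with water of experiment 1 stood apart: it had the 24.5%, and its 10 most abundant rows took 43.5% of its reads, against 25.1% to 30.4% in the other 7 of that experiment. For the results that rest on it, the medians and the changes of the members named first are also given without it, while single-library values and numbered pairs include it. Printed RPM are unscaled, while log2 changes use RPM divided by a scaling factor per library. That factor was 0.685 in the library that stood apart, against 0.926 and 0.885 with DMSO and water of experiment 1. Log2 changes therefore differ from ratios of the printed RPM. As a check on the labels, CDKN1A, the p53 target that stops the cell cycle, had a log2 change of 1.18 ± 0.29 (SE) between Nutlin-3a and DMSO in water, was higher in 5 of 5 numbered pairs, and had an adjusted p of 0.0754 in limma with the pairs as a block. Its log2 change was 0.91 without the library that stood apart.

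The 77 genes took a far larger share of nuclear reads in experiment 2 than in experiment 1. In experiment 2 libraries 1, 2 and 3 had 11.1%, 5.68% and 6.66% with Nutlin-3a and peptide, 9.78%, 5.12% and 6.78% with Nutlin-3a and water, 11%, 6.14% and 8.12% with DMSO and peptide, and 11.97%, 6.47% and 6.78% with DMSO and water. In experiment 1 the share was 1.85% and 1.89% with Nutlin-3a and peptide, 1.61% and 1.68% with Nutlin-3a and water, 1.67% and 1.76% with DMSO and peptide, and 1.59% in both libraries with DMSO and water. Library 1 was the highest of each group in experiment 2, and every library of experiment 2 was above every library of experiment 1. In experiment 2 the 4 groups overlapped. In experiment 1 both libraries with Nutlin-3a and peptide were above its other 6, both with DMSO and water were below its other 6, and the groups between them overlapped. RPM are shares of each library, and in bulk RNA fewer cells of a type and less RNA per cell cannot be told apart.

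**Figure D1:**
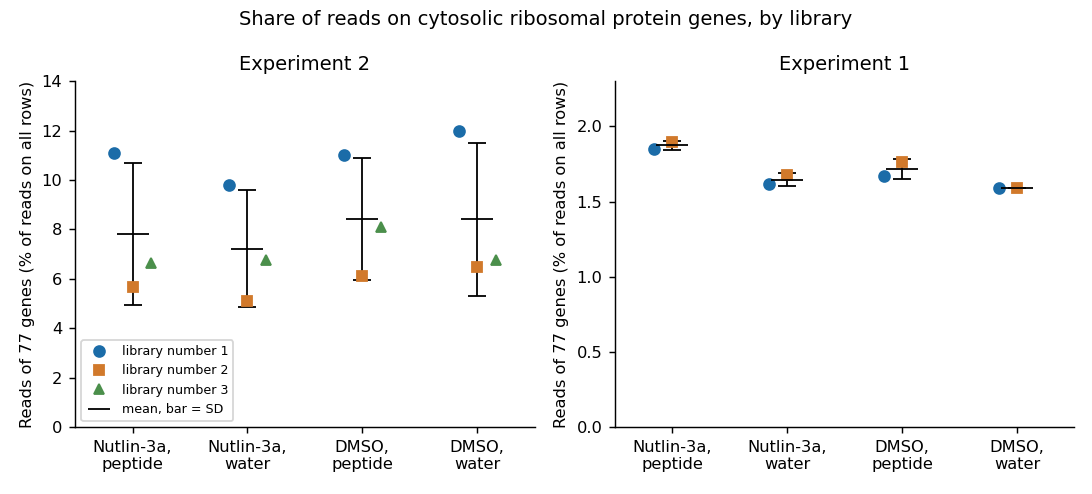
Share of all reads on gene rows that fell on the 77 genes, in percent (vertical axis), for each library of the 4 groups (horizontal axis) in experiment 2 (left) and experiment 1 (right); the vertical scales differ, dashes are group means and bars are SD. Library 1 of each group in experiment 2 sits between 9.78% and 11.97%, above libraries 2 and 3, and the libraries of experiment 1 sit between 1.59% and 1.89%.

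Each of the 77 members was higher in all 12 libraries of experiment 2 than in any of the 8 of experiment 1, which held for 32.3% of the genes tested. The experiments' tables were normalized separately, so this is a description with no test. The ratio of mean RPM, experiment 2 over experiment 1, had a median of 4.81 over the members and 1.43 over all genes tested. RPL41, which encodes the shortest ribosomal protein, had the highest ratio, 11.4, followed by RPS27 at 8.57 and RPL11 at 8.45. RPS15 had the lowest, 2.20, followed by RPS9 at 2.92. The ratio was 4.97 in the median for the large and 4.61 for the small subunit. The genes of the mitochondrial ribosome, 77 rows of a separate particle, had a median ratio of 2.02, 56 ribosome biogenesis factors 1.64, and 20 translation factors whose mRNAs have a TOP start 3.02. Structural RNA differed between the experiments as given above, and its part in these ratios was not tested. With the structural rows left out of the total, the members' share was 5.25% to 12.4% in experiment 2 and 1.88% to 2.37% in experiment 1.

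Within experiment 2, library 1 of each group stood above libraries 2 and 3 for most members. Mean RPM over the 4 libraries numbered 1, divided by the mean of the other 8, had a median of 1.66 over the 77 members and was above 1 in all of them, while the median over all genes tested was 0.854. The 4 libraries numbered 1 were above the other 8 without overlap in 63 members, against 10.9% of genes tested. RPL10, which completes the large subunit late in its assembly, had the highest ratio, 2.35. RPSA, the small subunit protein also known as the laminin receptor, had the lowest, 1.14. The mitochondrial ribosome genes had a median of 0.699 and the biogenesis factors 0.725. The labels do not say how the libraries numbered 1 differ from the others.

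Levels between genes were compared per kb of gene span, since the rows count reads over the whole gene and most bases of a span are intron. Spans ran from 523 to 14554 bases with a median of 3658, against 20603 over all genes tested, and in the 54 members with a GENCODE transcript whose ends lay within 200 bases of the row's exons made up a median of 17.5% of the span. The median level was 267 RPM per kb in experiment 2 and 54.9 in experiment 1. RPS2, a protein near the mRNA entry of the small subunit, had the highest level per kb, 1115 RPM per kb in experiment 2 and 263 in experiment 1. In experiment 2 and experiment 1, RPL8, next to the peptidyl transferase centre, had 795 and 226, the RPL21 row on chromosome 10 had 874 and 137, and RPLP0, which anchors the P stalk, had 790 and 140 RPM per kb. The lowest was RPL22, an RNA-binding protein of the large subunit, with 44.3 RPM per kb in experiment 2 and 7.78 in experiment 1. By the mean over all 20 libraries RPS19, RPL38 and RPS10 followed. In the same order of experiments, RPS19 had 86.3 and 27.3, RPL38 89.95 and 22.6, and RPS10 93.4 and 28.4 RPM per kb. RPS19 and RPS10 are among the genes mutated in Diamond-Blackfan anaemia. Their rank holds per kb of span only. RPS19 spans 11460 bases, and its mean of 989 RPM in experiment 2 and 313 in experiment 1 was above the members' medians, 904 and 182 RPM. Group means of RPS10 were 649 to 776 RPM in experiment 2, below that median, and 208 to 231 RPM in experiment 1, above it. Across the 77 members the levels of the experiments correlated at r = 0.870 on the log scale, over rows that share libraries and therefore given with no p.

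**Figure D2:**
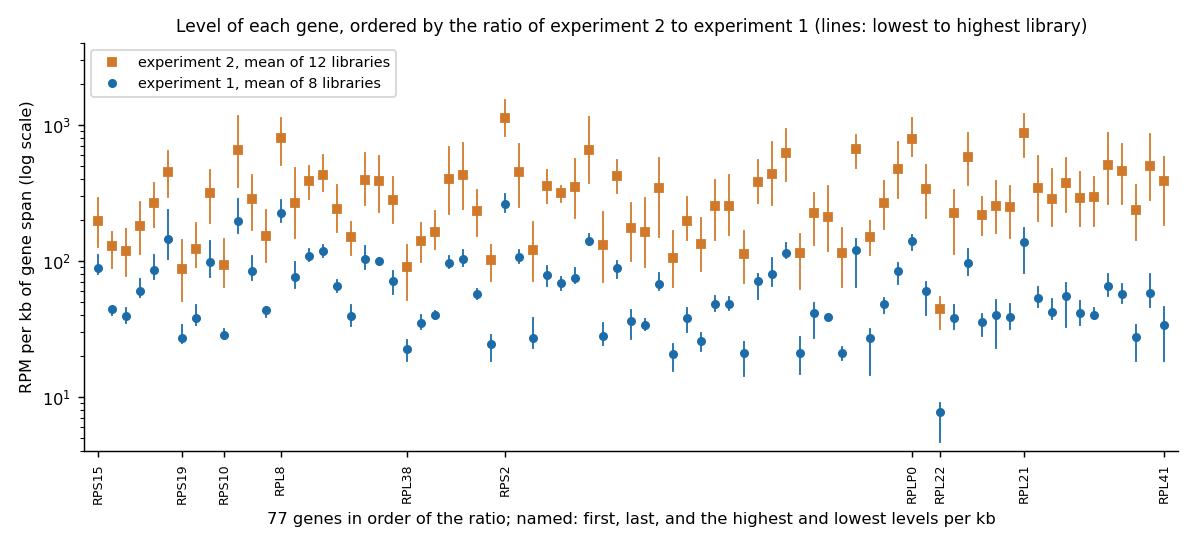
Mean RPM per kb of gene span on a log axis for each of the 77 genes, ordered from left to right by the ratio of experiment 2 to experiment 1, with lines from the lowest to the highest library, and names on the axis for the first, the last and those with the highest and lowest levels per kb. The orange squares (experiment 2, 12 libraries) are above the blue circles (experiment 1, 8 libraries) for every gene, by 2.20-fold in RPS15 at the left and 11.4-fold in RPL41 at the right, and RPL22 is lowest in both.

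Some rows share reads with other rows. RPL17, RPS10 and RPL36A lie on the same strand as the read-through rows RPL17-C18orf32, RPS10-NUDT3 and RPL36A-HNRNPH2 and cannot be separated from them. RPL5 overlaps FAM69A on the opposite strand in the table of experiment 1, and RPS25 overlaps CCDC84 in that of experiment 2, and the sources used here do not say whether counting used the strand. The tables also hold 31 rows of processed pseudogenes of the members. The most abundant were RPSAP58, with means of 593 RPM in experiment 2 and 139 in experiment 1, and RPL13AP5, with 401 RPM in experiment 2 and 98.3 in experiment 1. How reads that match a gene and its copy were assigned is not given in the sources used here, so the levels of RPSA, RPL13A and RPL21 are uncertain to that extent.

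Base composition was read from the GENCODE transcript of the same name and strand whose ends lay nearest to the row's, at any distance, which all members but RPL21 had, 76 in all. G and C made up a median of 50.1% of the transcript, from 40.7% in RPS24 to 63.3% in RPL36, against a median of 50.2% over 14797 genes tested. The log2 ratio of experiment 2 to experiment 1 correlated with it at r = -0.540 over the 76 genes. The 19 members with the least G and C, up to 45.8%, had a median ratio of 5.43, and the 19 with the most, from 54.7% on, one of 3.32. These are descriptions over genes of the same libraries, with no p.

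snoRNAs inside the members were examined next, because their reads could fall within the span of the host. In the table of experiment 1, 30 members contained 56 rows of small RNAs on their own strand, 46 of them within an intron, 1 across an exon and an intron, and 9 in hosts with no transcript within that 200-base limit. Box C/D snoRNAs guide methylation and box H/ACA snoRNAs guide pseudouridylation of ribosomal RNA. The reads of these small rows equalled a median of 16.0% of the host's reads in experiment 1 and 17.6% in experiment 2, while they covered a median of 4.27% of the host's span, and the share of reads was in experiment 1 above the share of the span in 29 of 30 hosts. RPS12, a small subunit protein, had the largest share, 60.6% in experiment 1 and 69.2% in experiment 2. RPS13 followed with 47.5% and 41.2%, RPL13A with 42.0% and 37.1%, RPL23A with 40.0% and 37.996%, RPL27A with 36.9% and 37.3%, and RPL7A with 35.8% and 42.0%. The small row of RPS27A, MIR4426, lay inside it in the table of experiment 1 only. In no library did the small rows exceed the reads of their host.

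The snoRNAs of RPS12 and RPS13 are printed because they hold the largest shares. Those of RPS12 are SNORD101, equal to 19.6% of the host's reads in experiment 1 and 25.0% in experiment 2, SNORD100 with 23.6% and 24.8%, and SNORA33 with 17.4% and 19.4%. Those of RPS13 are SNORD14A, with 21.6% and 20.6%, and SNORD14B, with 25.9% and 20.6%. Sequences are from the genome of GENCODE release 29 (GRCh38), and capitals mark box C (TGATGA) and box D (CTGA) of the C/D snoRNAs and the ACA box of SNORA33.
SNORD101, chr6:132815307-132815379, plus strand: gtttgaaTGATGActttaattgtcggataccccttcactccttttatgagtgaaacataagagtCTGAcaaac
SNORD100, chr6:132816802-132816877, plus strand: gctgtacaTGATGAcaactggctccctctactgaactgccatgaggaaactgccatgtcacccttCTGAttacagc
SNORA33, chr6:132817219-132817348, plus strand: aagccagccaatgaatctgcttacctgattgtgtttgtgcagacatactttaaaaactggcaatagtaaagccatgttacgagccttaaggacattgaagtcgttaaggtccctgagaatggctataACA
SNORD14A, chr11:17074654-17074744, minus strand: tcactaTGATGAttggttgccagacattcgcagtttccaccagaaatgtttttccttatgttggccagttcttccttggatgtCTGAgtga
SNORD14B, chr11:17075779-17075868, minus strand: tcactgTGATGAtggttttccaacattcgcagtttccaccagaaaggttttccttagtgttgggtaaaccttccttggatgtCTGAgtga

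**Figure D3:**
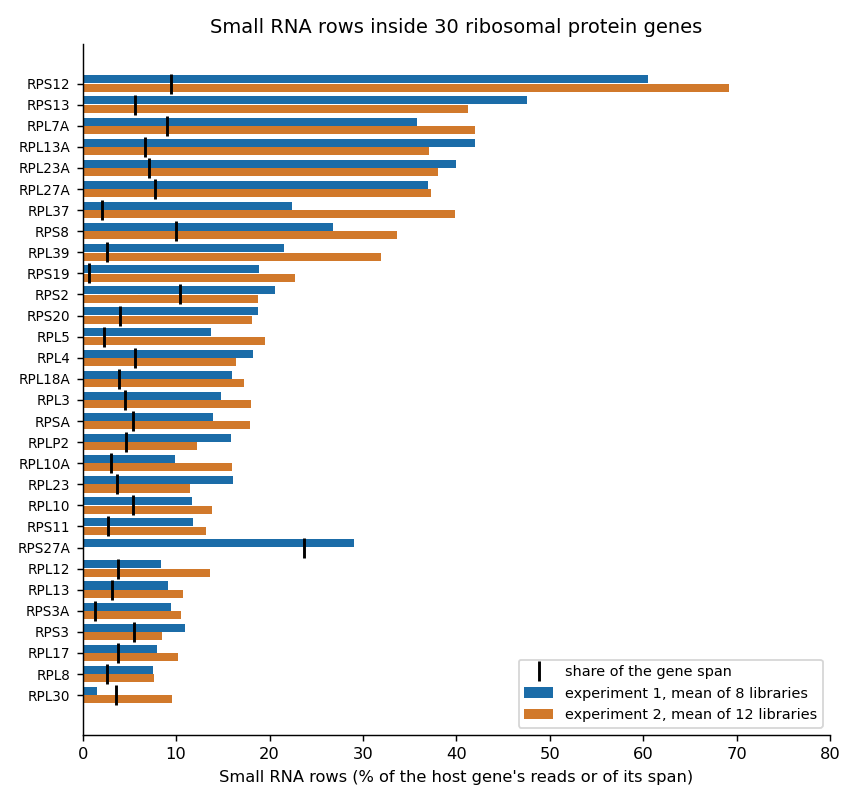
Reads of the small RNA rows inside each of 30 host genes, in percent of the host's reads (bars, mean of 8 libraries in experiment 1 and of 12 in experiment 2), with the percent of the host's span that they cover (black ticks). RPS12 is at the top with 60.6% and 69.2%, and the experiment 1 bar passes the tick in 29 of the 30 hosts.

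The first comparison asked what Nutlin-3a did to these genes without peptide. No member was called: 0 of 77 passed an adjusted p of 0.05 in limma, and 0% of the 15958 genes tested did, so a count of 0 says nothing particular about the members. At an unadjusted p under 0.05 there were 0 members, against 94 genes of all tested (0.589%), and limma-voom likewise gave 0 called genes, with 110 at an unadjusted p under 0.05. In limma with the pairs as a block, the fit used above for CDKN1A, 0 members and 0% of genes were called. At an unadjusted p under 0.05 that fit had 0 members, against 559 genes higher (3.5%) and 601 lower (3.77%). The members' median log2 change was -0.08, with 10 of 77 above 0, where the median over all genes tested was -0.02 and 45% of them were above 0. The 77 genes of the mitochondrial ribosome had the same median, -0.08, and the same count, 10 above 0. Without the library that stood apart the members' median was -0.18 with 0 of 77 above 0, against 48.3% of genes tested, and the mitochondrial ribosome genes were at -0.14 with 4 above 0. Of the 20 libraries left out in turn, 2 of experiment 2 turned the direction of the members' median: it was 0.14 without library 1 of DMSO with water and 0.06 without library 2 of Nutlin-3a with water. It was -0.03 without library 3 of Nutlin-3a with water and -0.20 without library 1 of that group.

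RPS28, a small subunit protein at the mRNA exit, had the largest log2 change, 0.21 ± 0.32 (SE), and RPL41 the smallest, -0.31 ± 0.30. In experiment 1 RPS28 had 69.2 and 135 RPM with Nutlin-3a and water, against 59.7 and 73.4 RPM with DMSO and water. In experiment 2 it had 332, 170 and 236 RPM with Nutlin-3a and water, against 362, 202 and 213 RPM with DMSO and water. The value of 135 RPM belongs to the library that stood apart, and without it the RPS28 log2 change within experiment 1 was 0.06, against 0.74 with it, and the change over both experiments turned to -0.07. RPL41 had 28.8 and 17.0 RPM with Nutlin-3a and water, against 30.5 and 33.2 RPM with DMSO and water in experiment 1. In experiment 2 RPL41 had 421, 172 and 446 RPM with Nutlin-3a and water, against 537, 240 and 398 RPM with DMSO and water. The groups overlapped for both genes in experiment 2 and for RPS28 in experiment 1, where RPL41 was lower without overlap. The RPL41 change was -0.23 without the library that stood apart. RPS27 (0.07) and RPL36 (0.04) followed RPS28, and RPL7 (-0.23) and RPS3A (-0.23) followed RPL41, all with an adjusted p of 1.00 in limma. RPS27 (-0.16) and RPL36 (-0.21) were below 0 without that library, and RPL7 and RPS3A were at -0.14 and -0.17.

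Members that are reported to bind MDM2 had log2 changes below 0 and inside their SE. That SE is from the fit without the numbered pairs as a block, so it also holds the spread between numbers. With the pairs as a block none of the members had an unadjusted p under 0.05 in limma. RPL5 had 282 and 143 RPM with Nutlin-3a and water, against 289 and 253 RPM with DMSO and water in experiment 1. In experiment 2 it had 1861, 1088 and 1260 RPM with Nutlin-3a and water, against 1932, 1281 and 1288 RPM with DMSO and water. Its log2 change was -0.20 ± 0.22 (SE), lower in 5 of 5 numbered pairs, which held for RPL21 too and for 3.89% of the genes tested. The direction of RPL5 in experiment 1 turned with the library that stood apart, from which the 143 RPM come: its change there was -0.23 with that library and 0.06 without it, and over both experiments it was -0.10 without it. RPL11 had 120 and 84.3 RPM with Nutlin-3a and water, against 119 and 123 RPM with DMSO and water in experiment 1. In experiment 2 RPL11 had 1311, 653 and 944 RPM with Nutlin-3a and water, against 1663, 861 and 934 RPM with DMSO and water, a log2 change over both experiments of -0.22 ± 0.27, or -0.21 without that library. The others were RPL23 at -0.16, RPL26 at -0.07, RPS3 at -0.15, RPS7 at -0.10, RPS14 at -0.12, RPS20 at -0.08 and RPS27A, which is made as a fusion with ubiquitin, at -0.19. The P stalk, the arm that recruits translation factors, was at -0.02 for RPLP0, 0.01 for RPLP1 and 0.03 for RPLP2, and RPSA was at -0.06. Without the library that stood apart the 9 MDM2-binding proteins lay between -0.22 (RPS14) and -0.10 (RPL5), and RPLP0, RPLP1, RPLP2 and RPSA were at -0.17, -0.19, -0.16 and -0.13.

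With all libraries the experiments lay on opposite sides of 0. In experiment 1 the members' median log2 change was 0.21 with 66 of 77 above 0, against 45.2% of genes tested, and in experiment 2 it was -0.28 with all 77 below 0, against 48.5%. By numbered pair, experiment 1 gave members' medians of 0.05 and, with the library that stood apart, 0.38, and experiment 2 gave -0.45, -0.41 and -0.005, so the pair numbered 3 of experiment 2 was near 0. Members higher in both pairs of experiment 1 and lower in all 3 of experiment 2 numbered 23, against 4.22% of genes tested. The median difference between the experiments was 0.52, and 0.32 without the library that stood apart. No member passed the test of that difference in limma (0% of genes did), and the smallest adjusted p of a member with the pairs as a block was 0.0969, in a fit that called 3 genes of all tested (0.0188%). At an unadjusted p under 0.05 in the blocked fit 57 members had the larger change in experiment 1, against 11% of genes tested. Members share the same libraries and are not replicates, so counts of members at an unadjusted p, here and below, are descriptions only. Over the mitochondrial ribosome genes the medians were 0.05 in experiment 1 and -0.18 in experiment 2.

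Most of the size in experiment 1 came with the library that stood apart: without it the median there was 0.02. RPLP1 had 234 and 330 RPM with Nutlin-3a and water, against 211 and 236 RPM with DMSO and water. In experiment 2 RPLP1 had 1836, 967 and 1376 RPM with Nutlin-3a and water, against 2329, 1233 and 1410 RPM with DMSO and water, lower in each pair. The change within experiment 1 also varied with base composition: over 76 members it correlated with G and C content at r = 0.604 with all libraries and at r = -0.395 without that library. The 19 members richest in G and C had a median log2 change of 0.41 with it and -0.02 without it, and the 19 poorest 0.05 and 0.07. Experiment 2 was also fitted alone in limma, with its pairs as a block. There 70 of 77 members were lower at an unadjusted p under 0.05, against 11.3% of genes tested. None passed after adjustment, and the smallest adjusted p of a member was 0.0844. The count is no test of the group's direction, and the members' median in the pair numbered 3 was -0.005. Without the libraries numbered 1 of experiment 2 the median over both experiments was 0.03.

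**Figure D4:**
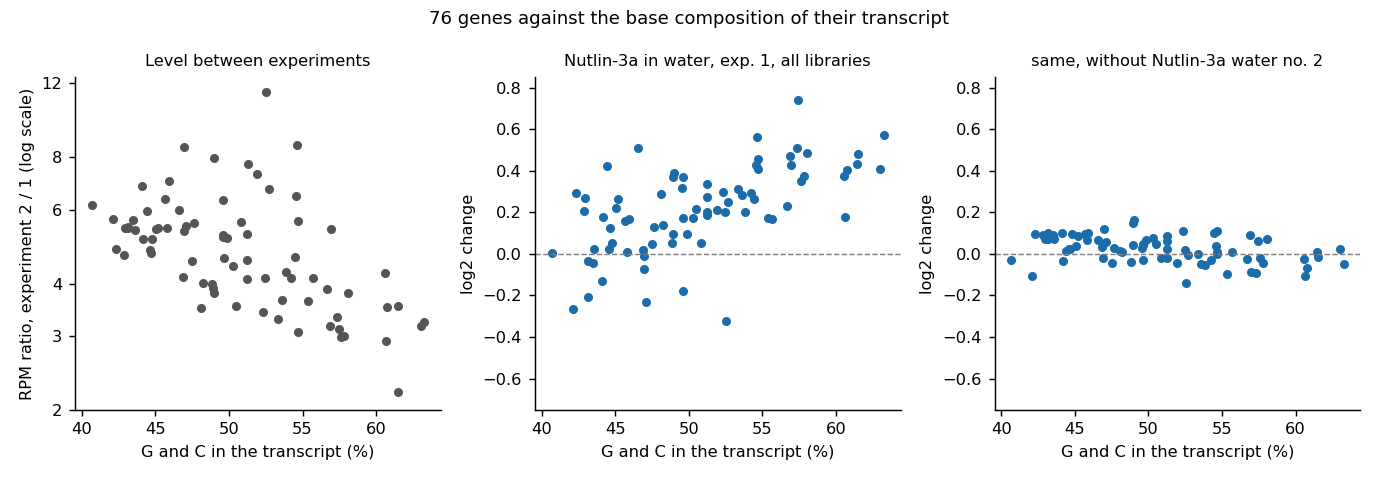
Each point is 1 of 76 genes, against the percent of G and C in its transcript (horizontal axis). The RPM ratio of experiment 2 to experiment 1 (left, log axis) is lower in genes rich in G and C (r = -0.540), and the log2 change with Nutlin-3a in water within experiment 1 is higher in them with all libraries (middle, r = 0.604) and not without the second Nutlin-3a library with water (right, r = -0.395).

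The second comparison was Nutlin-3a against DMSO in cells with peptide. Again 0 of 77 members and 0% of genes tested were called by limma, 0 members had an unadjusted p under 0.05, against 26 genes (0.163%), and limma-voom called 0 genes, with 56 at an unadjusted p under 0.05. The median log2 change of the members was -0.004 with 36 of 77 above 0, against -0.01 and 44.9% over all genes. Libraries of experiment 2 left out one at a time moved this median between -0.15, without library 1 of Nutlin-3a with peptide, and 0.14, without library 1 of DMSO with peptide or library 2 of Nutlin-3a with peptide. It was 0.10 without library 3 of Nutlin-3a with peptide. RPS29, a zinc-binding protein of the small subunit head, had the largest, 0.24 ± 0.29 (SE), before RPS21 at 0.11 and RPL41 at 0.11. In experiment 1 RPS29 had 88.2 and 105 RPM with Nutlin-3a and peptide, against 65.6 and 72.0 RPM with DMSO and peptide, with no overlap. In experiment 2 it had 534, 214 and 321 RPM with Nutlin-3a and peptide, against 418, 201 and 388 RPM with DMSO and peptide, with overlap. The smallest were RPL6 at -0.11, RPS4X at -0.09 and RPL15 at -0.08, all with an adjusted p of 1.00 in limma. The MDM2-binding proteins lay between RPL26 at -0.07 and RPS27A at 0.05, with RPL5 at -0.04 and RPL11 at -0.01.

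A near-zero median again joined experiments of opposite sign in this comparison, which does not set the library that stood apart against any other. All 77 members were above 0 in experiment 1, with a median of 0.29, against 46.6% of genes tested, and all 77 were below 0 in experiment 2, with a median of -0.20, against 53.4%. By pair, experiment 1 gave medians of 0.29 and 0.28, and experiment 2 gave -0.01, -0.16 and -0.43. In 43 members both pairs of experiment 1 were above 0 and all 3 of experiment 2 below it, against 11% of genes tested. The median difference was 0.49, no member passed its test in limma, where 1 gene did (0.00627%), and with the pairs as a block the smallest adjusted p of a member was 0.216, while 6 genes were called (0.0376%). At an unadjusted p under 0.05 in the blocked fit 61 members had the larger change in experiment 1, against 6.32% of genes tested. Within experiment 2 alone, with its pairs as a block, 17 of 77 members were lower at an unadjusted p under 0.05, against 8.84% of genes tested, and the smallest adjusted p of a member was 0.191. RPL11 is an example: 144 and 155 RPM with Nutlin-3a and peptide, against 126 and 147 RPM with DMSO and peptide in experiment 1. In experiment 2 RPL11 had 1506, 749 and 884 RPM with Nutlin-3a and peptide, against 1533, 809 and 1063 RPM with DMSO and peptide, lower in each pair.

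**Figure D5:**
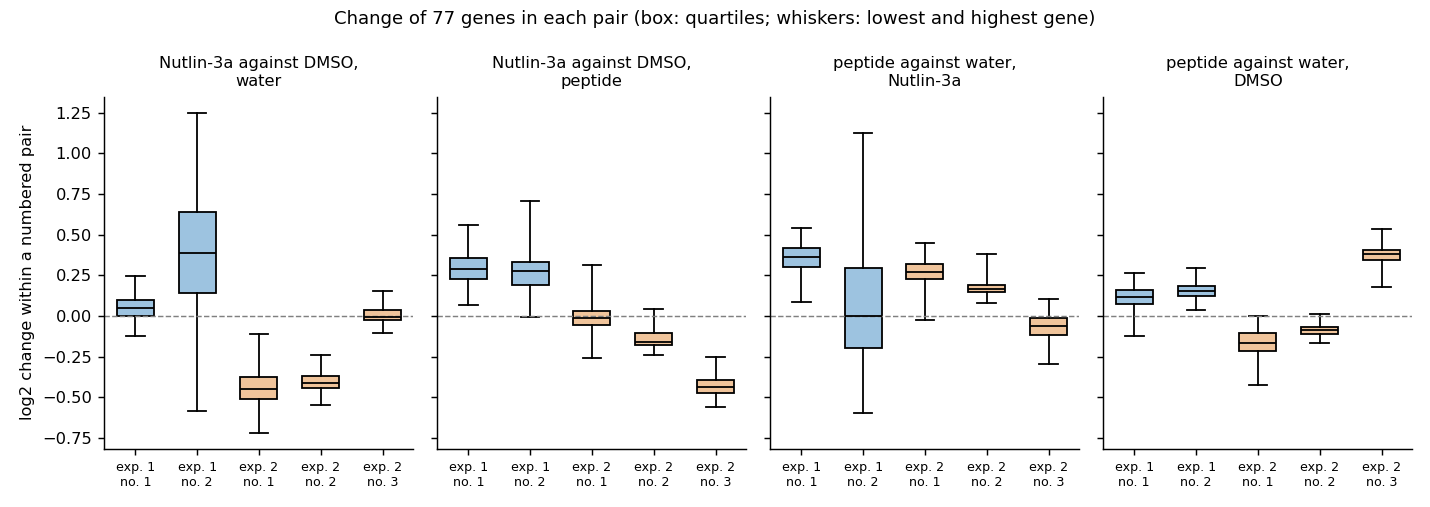
Log2 change of the 77 genes within each pair of libraries with the same number (horizontal axis: 2 pairs of experiment 1 in blue, 3 of experiment 2 in orange), for the 4 comparisons named above the panels; boxes are quartiles with the median, whiskers the lowest and highest gene. With Nutlin-3a against DMSO the pair medians run from 0.38 to -0.45 in water and from 0.29 to -0.43 in peptide, with the pairs of experiment 1 above 0; with peptide against water they run from 0.36 to -0.06 under Nutlin-3a and from 0.38 to -0.17 under DMSO.

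The third comparison was peptide against water under Nutlin-3a, and its libraries with Nutlin-3a and water are those of the first. No member and 0% of genes tested were called by limma, with 0 members and 80 genes (0.501%) at an unadjusted p under 0.05, and limma-voom called 0 genes, with 114 at an unadjusted p under 0.05. The members' median log2 change was 0.15 with 76 of 77 above 0, against 0.04 and 60.6% over all genes tested. It was 0.24 with 77 above 0 when the library that stood apart was left out, against 52% of genes tested. Within experiment 1 the median was 0.18 with 67 above 0, against 60.4% of genes, and it was 0.39 without the library that stood apart. Within experiment 2 it was 0.13 with 76 above 0, against 51.3%. Pair medians in experiment 1 were 0.36 and, with that library, -0.0005, and those of experiment 2 were 0.27, 0.17 and -0.06. Single libraries moved the median most when left out: without library 1 of Nutlin-3a with peptide in experiment 2 it was 0.005, and without library 2 of Nutlin-3a with water there it was 0.01. It was 0.27 without library 1 of Nutlin-3a with water or library 2 of Nutlin-3a with peptide, 0.25 without library 3 of the group with peptide and 0.10 without library 3 of the group with water, all of experiment 2, and 0.09 without library 2 of Nutlin-3a with peptide in experiment 1.

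RPL41, RPS29 and RPL35A had the largest changes. RPL41 had 36.9 and 43.1 RPM with Nutlin-3a and peptide, against 28.8 and 17.0 RPM with Nutlin-3a and water in experiment 1. In experiment 2 RPL41 had 446, 223 and 367 RPM with Nutlin-3a and peptide, against 421, 172 and 446 RPM with Nutlin-3a and water. The groups did not overlap in experiment 1 and overlapped in experiment 2, and the log2 change was 0.37 ± 0.30 (SE). RPS29 was at 0.32 ± 0.29 and RPL35A at 0.30 ± 0.27, while RPS28 (-0.04) and RPS19 (0.04) were among the smallest, all with an adjusted p of 1.00 in limma. Without the library that stood apart RPL41 was at 0.28, RPS29 at 0.36, RPL35A at 0.28, RPS28 at 0.23 and RPS19 at 0.21. RPL5 had 312 and 289 RPM with Nutlin-3a and peptide in experiment 1, against 282 and 143 RPM with Nutlin-3a and water. In experiment 2 RPL5 had 1809, 1170 and 1290 RPM with Nutlin-3a and peptide, against 1861, 1088 and 1260 RPM with Nutlin-3a and water, a log2 change over both experiments of 0.26, or 0.15 without that library.

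With the numbered pairs as a block, 15 members had an unadjusted p under 0.05, all higher with peptide, against 4.83% of genes tested, and each had an adjusted p of 0.592. They were RPL41 (0.37), RPS29 (0.32), RPL35A (0.30), RPL21 (0.29), RPL9 (0.29), RPL11 (0.29), RPS27A (0.28), RPS3A (0.28), RPL7 (0.28), RPL5 (0.26), RPL39 (0.25), RPL23 (0.25), RPS23 (0.25), RPL34 (0.23) and RPL24 (0.23). Without the library that stood apart the blocked fit gave 33 such members, against 6.84% of genes, and again none after adjustment. Members higher with peptide in 5 of 5 pairs numbered 13, against 4.76% of genes: RPL3, RPL34, RPL39, RPL5, RPL7, RPL9, RPS13, RPS27A, RPS29, RPS3, RPS3A, RPS4X and RPSA. These names were picked by their values. The other members of the MDM2 panel were RPS3 at 0.25, RPS20 at 0.16, RPS14 at 0.15, RPS7 at 0.12 and RPL26 at 0.06, RPSA was at 0.15, and the P stalk proteins were each at about 0.09. With the library that stood apart left out, the 9 panel proteins lay between 0.15 (RPL5) and 0.28 (RPS3), RPSA was at 0.21, and RPLP0, RPLP1 and RPLP2 were at 0.23, 0.27 and 0.27. Within experiment 1 the change correlated with G and C content at r = -0.586 with all libraries and at r = 0.331 without the library that stood apart.

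The fourth comparison was peptide against water under DMSO. limma called no member and 0% of genes tested, and 0 members and 14 genes (0.0877%) had an unadjusted p under 0.05, while limma-voom called 0 genes, with 17 at an unadjusted p under 0.05. The members' median log2 change was 0.08 with 76 of 77 above 0, against 0.03 and 62.9% over all genes tested. Single libraries turned or moved this median: it was -0.07 without library 1 of DMSO with peptide in experiment 2, and 0.29 without library 1 of DMSO with water there. It was 0.17 without library 2 of DMSO with peptide, 0.02 without library 2 or 3 of DMSO with water, all of experiment 2, and 0.006 and 0.03 without library 1 and 2 of DMSO with water in experiment 1. RPS27, RPS28 and RPL8 had the largest, 0.13 each, and RPL41 (-0.04), RPS29 (0.02) and RPL38 (0.04) the smallest, so RPL41 and RPS29, highest of the members with peptide under Nutlin-3a, were lowest here. RPL41 had 26.9 and 36.9 RPM with DMSO and peptide, against 30.5 and 33.2 RPM with DMSO and water in experiment 1. In experiment 2 it had 414, 216 and 466 RPM with DMSO and peptide, against 537, 240 and 398 RPM with DMSO and water, and the groups overlapped in both. Pair medians in experiment 1 were 0.12 and 0.15, and those of experiment 2 were -0.17, -0.09 and 0.38, where library 3 alone was above 0.

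The last comparison was the difference of the Nutlin-3a effects, peptide minus water. limma called no member and 0% of genes, with 0 members and 28 genes (0.175%) at an unadjusted p under 0.05, and limma-voom called 0 genes, with 45 at an unadjusted p under 0.05. The members' median was 0.07 with 65 of 77 above 0, against 0.01 and 53.3% over all genes tested. Leaving out the library that stood apart gave 0.17 with 77 above 0, against 48.6% of genes tested. Of 20 libraries left out in turn, 4 of experiment 2 turned the sign: it was -0.13 without library 1 of DMSO with water, -0.07 without library 2 of Nutlin-3a with water, -0.06 without library 1 of Nutlin-3a with peptide and -0.02 without library 2 of DMSO with peptide, and the others gave 0.02 to 0.22. RPL41 (0.41 ± 0.42, SE), RPS29 (0.29) and RPS27A (0.23) were the highest and RPS28 (-0.17) and RPS27 (-0.06) among the lowest. Without that library they were at 0.33, 0.34, 0.21, 0.11 and 0.17 in the same order. Both experiments held pairs on either side of 0: experiment 1 gave pair medians of 0.24 and, with the library that stood apart, -0.12, and experiment 2 gave 0.43, 0.26 and -0.43. In the same fit the 5 p53 targets used as a check (CDKN1A, MDM2, FAS, TNFRSF10B and BTG2) had a median of -0.72, with 5 of 5 below 0, and of -0.66 without that library.

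Genes near the family gave the following. Of the 8 L-type paralogues 5 were abundant enough to test. RPL22L1, the paralogue of RPL22, had means of 261 RPM in experiment 2 and 46.2 in experiment 1, and its log2 change was 0.39 with peptide under Nutlin-3a, higher in 5 of 5 pairs, with an adjusted p of 0.592 in the blocked limma fit. RPS27L, which is reported as a p53 target, had a log2 change of 0.24 with Nutlin-3a in water. RPL22L1 was at 0.29 and RPS27L at 0.35 in these comparisons when the library that stood apart was left out. With Nutlin-3a in water the translation factors with a TOP start had a median of -0.13 with 1 of 20 above 0, and the ribosome biogenesis factors one of -0.10 with 9 of 56 above 0. With peptide under Nutlin-3a these lists were at 0.15 with 18 of 20 above 0 and at 0.11 with 45 of 56 above 0, and the mitochondrial ribosome genes at 0.15 with 73 of 77 above 0. Of all genes tested 45% were above 0 with Nutlin-3a in water (median -0.02) and 60.6% with peptide under Nutlin-3a (median 0.04). The 30 members with small RNA rows inside and the other 47 had medians of -0.08 and -0.07 with Nutlin-3a in water, and of 0.15 and 0.13 with peptide under Nutlin-3a. Without the library that stood apart the medians with Nutlin-3a in water were -0.15 for the translation factors, -0.08 for the biogenesis factors and -0.18 for the members with and without small RNA rows. With peptide under Nutlin-3a they were 0.13, 0.06, 0.25 and 0.24 in that order, and 0.17 for the mitochondrial ribosome genes.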

How the data were processed

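The authors deposited 1 table of normalized signal per experiment, with 26485 gene rows each and 0 columns of no sample. Per the submitters' processing notes the tools were HISAT2, bedtools and limma and the build hg38; versions and roles are not given in the sources used here. The deposited signal, multiplied by the row's stop minus a thousandth of its start, summed to 1000000 per library (RPM). Whole reads were recovered for 100% of 529700 values (tolerance 0.001). RPM were scaled by a trimmed mean of M values (trims of 30% and 5%). The deposited unit is not raw counts, so limma 3.58.1 (R 4.3.3) with a trend was run on log2 of scaled RPM plus 0.5. Fold changes are on that scale and understate those of low genes. The 15958 genes averaging 0.5 RPM or more were fitted with condition and experiment as terms, with Benjamini-Hochberg adjustment over all of them; a call is an adjusted p under 0.05. The procedure was tested on simulated data whose changes were larger than those of the members over both experiments. That test does not show whether changes of the members' size would be called.

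Deviations of same-numbered libraries from their group means correlated over genes: the 12 pairs of experiment 1 gave 0.286 to 0.585, and the 18 of experiment 2 gave 0.877 to 0.940. In experiment 1 the 2 libraries of a group deviate as mirror images. Its number 2 therefore repeats the values of number 1, and the 12 are not separate. The numbers were therefore taken as pairs from the values, since no label states a shared batch, and the blocked fit has the 5 numbers as a block. Members and gene lists were chosen with earlier results of these data known. The rule for named genes took 39 members: the 3 largest and smallest changes of each comparison, the highest and lowest levels per kb, a panel of 9 MDM2-binding proteins, the P stalk with RPSA, and the 6 largest small RNA shares. Other members named were picked by their values. Promoters are from RefSeq (GRCh38.p14), transcripts from GENCODE release 29. Python 3.11.15, pandas 2.3.3 and matplotlib 3.10.9 were used. Read numbers limit precision by counting error only. Alternatives were other scalings, filters, pseudocounts, limma-voom, each experiment alone, structural or small RNA rows left out, and each library left out.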

Additional observations from a re-analysis of the deposited data

Results flagged for a closer look

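With all libraries, the effect of Nutlin-3a in water differed in sign between the experiments for the members as a group. Their median log2 change in experiment 1 minus that in experiment 2 was 0.52, and 23 members had both pairs of experiment 1 above 0 and all 3 pairs of experiment 2 below it, against 4.22% of genes tested. Among the MDM2-binding panel, the P stalk, RPSA and the members with the 3 largest and 3 smallest changes of this comparison, it held for RPLP1 (difference 0.83), RPLP0 (0.71), RPLP2 (0.71), RPSA (0.42) and RPS3 (0.41). The difference itself was tested in limma: no member passed, with a smallest adjusted p of 0.0969 when the pairs were a block. The library that stood apart enters each of these values, and the median difference was 0.32 without it. The pair of experiment 1 that does not hold this library had a members' median of only 0.05, against -0.03 over all genes tested. The pair numbered 3 of experiment 2 was also near 0, at -0.005, against -0.0004 over all genes tested.

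The effect of Nutlin-3a in cells with peptide differed in the same way, with a median difference of 0.49 and 43 such members, against 11% of genes tested. In the same panel, P stalk, RPSA and members with the largest and smallest changes, it held for RPS3 (0.53), RPL15 (0.49), RPL6 (0.49), RPL11 (0.49), RPL23 (0.47), RPSA (0.46), RPLP0 (0.44), RPS4X (0.43) and RPL5 (0.40). No member passed the test of the difference, with a smallest adjusted p of 0.216 in the blocked limma fit. The pair numbered 1 of experiment 2 was near 0 here, with a members' median of -0.01 and 33 of 77 above 0, against a median of -0.006 over all genes tested. What sets the experiments apart was not tested.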

How the results depend on the processing

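No named member was called under any of 7605 combinations of member, comparison and setting, and 160 of these log2 values moved by more than their SE. Of 410 summary values 1 moved by more than the spread between pairs: the median difference between experiments in the effect of peptide under Nutlin-3a was 0.29 without the second Nutlin-3a library with water of experiment 1, against 0.06 with it. That spread, the SD of the pair medians, was 0.18 to 0.35 and larger than each comparison's median, so a median could change sign and count as unmoved. The 410 values also hold the counts of called members, which stayed at 0. The tally is therefore no measure of stability. Under 19 other settings the members' median log2 change ran from -0.29 to 0.24 with Nutlin-3a in water (3 settings with the other sign), -0.20 to 0.29 with Nutlin-3a in peptide (6), 0.11 to 0.24 with peptide under Nutlin-3a (0), 0.03 to 0.14 with peptide under DMSO (0) and -0.02 to 0.17 for the difference of the Nutlin-3a effects (1). Leaving out each of 20 libraries gave -0.20 to 0.14 (2 of the other sign), -0.15 to 0.14 (4), 0.005 to 0.27 (0), -0.07 to 0.29 (1) and -0.13 to 0.22 (4) in that order. With Nutlin-3a in water the 2 were library 1 of DMSO with water (0.14) and library 2 of Nutlin-3a with water (0.06), both of experiment 2. The replicate block left the medians as they were (-0.08 with Nutlin-3a in water, 0.15 with peptide under Nutlin-3a) and the count of called members at 0 in all comparisons. limma-voom with the replicate block, added after the data were seen, called 15, 16, 3, 0 and 4 genes in the same order of comparisons and 0 members. Other settings added then were each experiment alone with the block, small RNA rows subtracted with the block, and the libraries numbered 1 of experiment 2 left out. With small RNA rows subtracted the medians were -0.08 with Nutlin-3a in water and 0.15 with peptide under Nutlin-3a. The fewest reads of a member in a library were 834, and counting error was not separated from the spread between libraries.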
